A study of Mus musculus with 6 samples.

Results

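Genes of major histocompatibility complex (MHC) class II antigen presentation were followed in mouse testis with and without TAp73: Ciita, Cd74, H2-Aa, H2-Ab1, H2-Eb1, H2-DMa, H2-DMb1, H2-Oa, Cd86 and Cd83. These 10 are among the 19751 genes that a probe of the array names, and each was read by 1 probe. The genes were listed by their function, with the difference between knockout and wild type in these same arrays already known. Their differences are therefore given as a description with the standard error (SE) and no p-value. Calls from the fit across the whole array are counted, also with single arrays left out and under other settings, and nothing is read from them.

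The study took whole testis from male C57BL/6J mice aged 10 weeks. The knockout group was 3 mice labelled TAp73 KO and the control group 3 mice labelled TAp73 WT, with 1 array per mouse and no treatment. TAp73 is the set of p73 proteins that carry the transactivation domain, products of Trp73, a relative of the p53 gene. The construction of the knockout allele and the breeding of the controls are not given in the sources used here.

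MHC class II molecules are pairs of an alpha and a beta chain that show peptides from endosomes to CD4+ T cells. Dendritic cells, macrophages and B cells carry most of them, under the control of the transactivator CIITA. In the testis such cells lie mainly in the interstitium between the seminiferous tubules. The invariant chain CD74 holds new class II molecules until the endosome, where H2-DM loads the peptide and H2-O restrains H2-DM. CD86 gives the costimulatory signal to the T cell, and CD83, a surface protein of mature dendritic cells, counters the ubiquitination of class II and CD86 by MARCH1. C57BL/6 mice carry a defective H2-Ea gene, so the H2-Eb1 chain has no partner in this strain.

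CIITA acts through a conserved promoter module, an X box followed by a Y box, and the module is shown for the genes whose promoter was at hand because it is the sequence feature that class II genes are known to share. The RefSeq promoter table, with windows of 300 bases that begin 250 bases before each start on assembly GRCm38.p6, held 5 of the 10 genes. The letters GNAAC (from the X box) followed after 20 to 35 bases by TGATTGG (the Y box) were searched on both strands. All 4 matches below lie on chromosome 17 and are written 5′ to 3′ on the gene's strand, with both elements in capitals.
H2-Aa: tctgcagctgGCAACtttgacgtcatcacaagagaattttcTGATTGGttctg
H2-Eb1: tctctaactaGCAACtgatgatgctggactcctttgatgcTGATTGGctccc
H2-DMb1: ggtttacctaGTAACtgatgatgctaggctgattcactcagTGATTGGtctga
H2-Oa: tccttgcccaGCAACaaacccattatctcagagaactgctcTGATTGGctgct

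The stretches are chr17:34287862-34287914 on the minus strand for H2-Aa, and chr17:34305766-34305817 for H2-Eb1, chr17:34153087-34153139 for H2-DMb1 and chr17:34092293-34092345 for H2-Oa on the plus strand. All lie upstream of the gene's start. The gap between the elements was 25 bases in H2-Eb1 and 26 in the other 3, and the Y box began 45 to 63 bases before the start. Neither of the 2 listed starts of H2-DMa had the pair of elements, which says only that these letters are not in those windows. Of 32851 promoter windows of the same 300 bases 0.426% held the pair, and 7.82% held TGATTGG with or without the other element. A link between the module and the values on the arrays was not tested. Among the 4 genes with it, H2-Aa and H2-Eb1 were lower in every knockout than in every wild type. H2-DMb1 overlapped between the groups, and H2-Oa was near background, so its groups could not be compared.

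Of the 10 genes, 9 were well above background on enough arrays to enter the fit across all probes, and H2-Oa did not. Values are background-subtracted signals of the scanner, and differences are log2 values after each array was divided by its 75th percentile. That percentile was higher in wild type by 0.26 on the log2 scale, so equal signals give a scaled difference above 0. Of the 9 fitted genes 7 had a difference below 0, and the groups did not overlap for 5, all lower in the knockout. Over all 16953 fitted genes the groups were apart with lower knockout values for 16.0% and with higher values for 19.2%. Limma's test with Benjamini-Hochberg adjustment over all 31800 fitted probes called 3 of the 9 lower and 0 higher, against 3.55% and 0.224% of all fitted genes. The called genes were Cd83, Cd74 and Cd86. The count of 3 was 2 without knockout replicate 1 or any 1 of the 3 wild types, 1 without knockout replicate 2 and 1 without knockout replicate 3; Cd83 was called each time and Cd86 never. Since the genes were listed with this contrast known, nothing is read from these counts. The median difference was -0.54 over the 9 genes and 0.05 over all fitted genes.

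**Figure D1:**
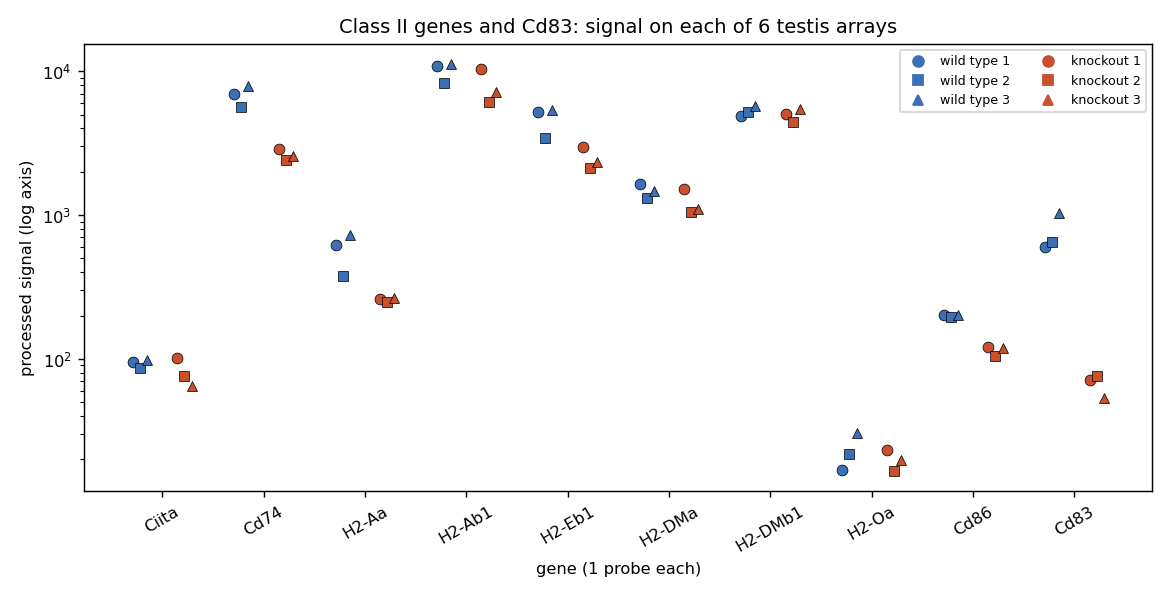
Processed signal (log axis) of each of the 10 genes on each of the 6 arrays, with wild type in blue, knockout in red and 1 symbol per replicate. Cd83, Cd74, H2-Aa, H2-Eb1 and Cd86 had no overlap between the groups, and H2-Oa lay between 16.6 and 30.6.

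Some facts of the files bear on every value. The targeted gene was lower in all arrays labelled knockout: its 3 probes differed by -6.01 (A_52_P193555, 548 to 605 in wild type against 4.81 to 17.2 in the knockouts), -3.21 (A_55_P1988133) and -0.99 (A_52_P410636, 975 to 1077 against 371 to 566). In the authors' deposited value table the group labels are exchanged relative to the scanner files, since each scanner array correlated at 0.97 to 0.99 with a column of the other group and at -0.40 to -0.27 with the column of its own label. All directions here follow the scanner files, and under the table's labels those of Cd83, Cd74 and Cd86 turn. Knockout replicate 1 was far from the rest in a principal component analysis (-66.2 on the leading axis, where the others had -4.9 to 30.8). The listed markers of germ, Sertoli and Leydig cells, the main cells of testis, passed the filter wherever a probe named them, while of 5 epididymis markers Lcn5 and Lcn8 were well above background on no array and 3 passed (Crisp1, Adam7 and Rnase10, the last at 1532 to 2225).

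Cd83 differed more than any other of the genes. Its probe A_51_P199135 had signals of 602, 652 and 1039 in wild type (replicates 1, 2 and 3, an order kept throughout) and of 71.7, 75.9 and 53.0 in the knockouts. Every knockout was far below every wild type, and the highest wild type was replicate 3. The scaled mean was -6.10 ± 0.31 (SD, n = 3) in the knockout and -2.87 ± 0.44 (SD, n = 3) in wild type, a difference of -3.23 (SE 0.26), or 9.39-fold lower. By the size of this difference Cd83 ranked 5 from the lowest of the 16953 genes. The probe stayed well above background on all 3 knockout arrays, but the knockout signals were dim and the size depended on the background correction. With normexp in place of the scanner's subtraction, and an offset of 50 added to each signal, the difference was -1.61. Limma no longer called it. An added offset draws dim signals closer together, and its part in any normexp value here was not tested apart. Under normexp limma called 0 probes over the whole array. The targeted gene Trp73 was also closer to equal there, at -0.63 from -0.99 (A_52_P410636).

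Cd86, which CD83 stabilises at the cell surface, was lower by a much smaller amount. It read 201, 196 and 202 in wild type and 121, 105 and 118 in the knockouts, with little spread in either group. The scaled difference was -0.54 (SE 0.08), or 1.46-fold lower. At this low signal the value depended on the background correction: with normexp Cd86 was 0.19 higher in the knockout.

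Cd74, the invariant chain, had the second largest difference. It read 6917, 5622 and 7952 in wild type and 2881, 2396 and 2579 in the knockouts. The knockouts lay close together, with a scaled mean of -0.80 ± 0.04 (SD, n = 3), against 0.32 ± 0.22 (SD, n = 3) in wild type. The difference was -1.11 (SE 0.12), or 2.17-fold lower. Under normexp it was -1.07, with the call lost.

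The classical chains differed by unequal amounts. H2-Aa, the alpha chain of I-A, read 619, 379 and 723 in wild type and 262, 247 and 266 in the knockouts. Wild type replicate 2 was the lowest of its group by a wide margin, yet above every knockout. The difference was -0.84 (SE 0.22), or 1.79-fold lower, and -0.32 under normexp. H2-Eb1, the beta chain of I-E, read 5190.3, 3418 and 5397 in wild type and 2972, 2116 and 2324 in the knockouts, a difference of -0.65 (SE 0.16). Wild type replicate 2 was again the lowest of its group.

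H2-Ab1, the beta chain that pairs with H2-Aa, had overlapping groups. It read 10818, 8299 and 11178 in wild type and 10405, 6078 and 7229 in the knockouts. Knockout replicate 1 lay within the range of the wild types, and the scaled difference was -0.12 (SE 0.15, 95% interval -0.48 to 0.24). This interval holds 0 and no difference as large as that of H2-Aa, whose own interval was -1.38 to -0.30; the intervals of the 2 chains overlap.

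The genes of peptide exchange differed little. H2-DMa read 1648, 1317 and 1469 in wild type and 1516, 1042 and 1094 in the knockouts, a scaled difference of -0.04 (SE 0.10, 95% interval -0.27 to 0.20). H2-DMb1 had 4882, 5194 and 5773 in wild type and 5068, 4411 and 5445 in the knockouts, a difference of 0.17 (SE 0.13, 95% interval -0.13 to 0.47). Both genes had overlapping groups. H2-DMb1 has the close paralog H2-DMb2, whose own probe was well above background on no array, and how far 1 probe reads both copies was not tested. H2-Oa, the alpha chain of the inhibitor H2-O, was well above background on 1 knockout and 1 wild type array, at 16.6 to 23.4 in the knockouts and 16.9 to 30.6 in wild type, and no fold is given.

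Ciita, the transactivator, was dim on every array. It read 95.3, 87.0 and 97.9 in wild type and 101, 76.4 and 65.0 in the knockouts, with the highest and the lowest signal both in knockouts. The scaled difference was 0.03 (SE 0.12, 95% interval -0.26 to 0.31). At this brightness the value moved with the background correction, to 0.77 under normexp.

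**Figure D2:**
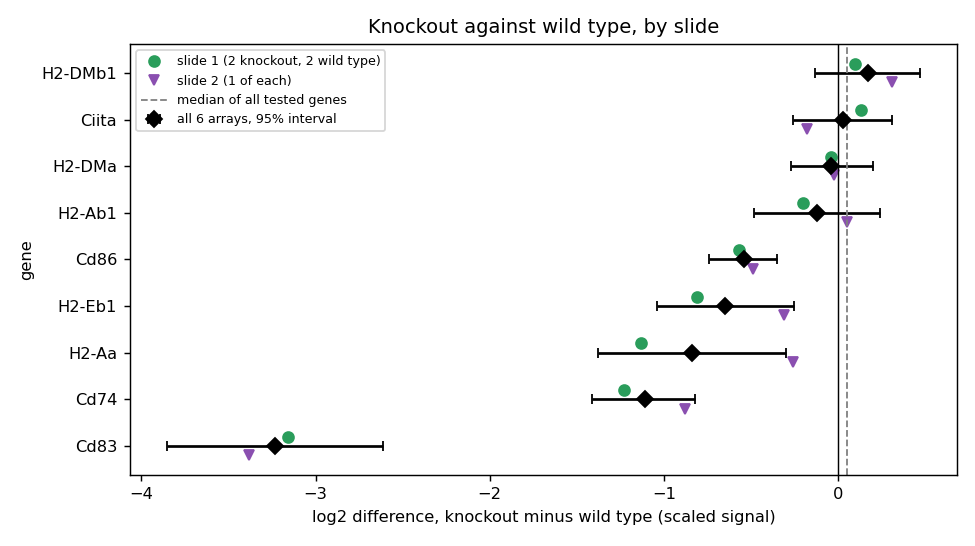
Log2 difference, knockout minus wild type, of the 9 fitted genes with its 95% interval (black), the same within slide 1 (green) and for the single pair of slide 2 (purple); the dashed line is the median of all fitted genes. Cd83 at -3.23 lies far from the others, and the slides differ most for H2-Aa.

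By their array barcodes the 6 arrays sat on 2 slides, which the sample labels do not give. Slide 1 held knockout replicates 1 and 2 and wild type replicates 1 and 3, and slide 2 held knockout replicate 3 and wild type replicate 2. Cd83 differed by -3.16 within slide 1 and by -3.38 in the slide 2 pair, and Cd86 by -0.57 and -0.49. Cd74 differed by -1.23 and -0.88. H2-Aa differed by -1.13 within slide 1 but by -0.26 in the slide 2 pair, and H2-Eb1 by -0.81 and -0.31. Wild type replicate 2, the slide 2 wild type, was the lowest wild type for 5 of the 9 genes (Cd74, H2-Aa, H2-Ab1, H2-DMa and H2-Eb1), while replicate 3 was the highest for 7 and the lowest for 0. Slide and mouse cannot be told apart in slide 2, which holds 1 array of each group.

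Ratios within an array do not depend on the scaling between arrays, though they do on the background correction. With the scanner's subtraction they show unequal differences among these genes. Under normexp the differences were -1.07 for Cd74, -0.32 for H2-Aa and -0.14 for H2-Ab1. Against the wild type mean, the log2 ratio of Cd74 to H2-Ab1 was -1.29, -0.78 and -0.92 in knockout replicates 1 to 3, and -0.08, 0.00 and 0.07 in wild type. The ratio of H2-Aa to H2-Ab1 was -1.13, -0.44 and -0.59 in the knockouts and 0.05, -0.28 and 0.23 in wild type. In both ratios knockout replicate 1 was the lowest and the groups did not overlap. The pairs here and below were picked with the difference between the groups known. They restate the differences of the single genes, and nothing is read from the lack of overlap. The share of other gene pairs without overlap was not computed.

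The ratio of Cd83 to Cd86 was -2.65, -2.36 and -3.05 in the knockouts and -0.31, -0.16 and 0.47 in wild type. Cd86 went the other way against Cd74, with 0.51, 0.57 and 0.63 in the knockouts and -0.02, 0.24 and -0.22 in wild type. With the scanner's subtraction Cd83 was thus reduced more than Cd86 and Cd74 on each knockout array, and Cd86 less than Cd74. Under normexp Cd86 was not reduced (0.19).

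**Figure D3:**
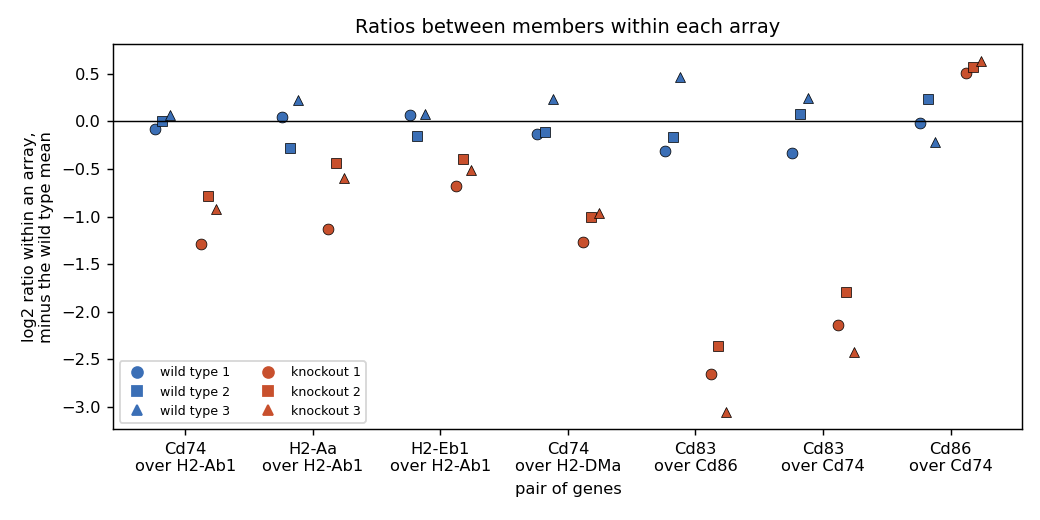
Log2 ratio of pairs of genes within each array, minus the wild type mean of that ratio, for 3 wild type (blue) and 3 knockout (red) arrays. Ratios of Cd83 lie furthest below 0 in the knockouts, down to -3.05, and Cd86 over Cd74 lies above 0.

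Other genes of the pathway were taken from lists chosen by function, also with earlier results of these arrays known, and each list is given by its calls in the same fit. Since those results were known, nothing is read from the shares that follow. Over all lists 12 of 102 fitted genes were called lower (11.8%) and 1 higher (0.980%), beside 3.55% and 0.224% of all fitted genes. Under normexp 0 of them were called in limma, with 12 lower at p under 0.05 before adjustment. The lower count was 5, 1 and 2 without knockout replicates 1, 2 and 3, and 8, 1 and 3 without wild types 1, 2 and 3; it was 6 with slide as a block and 0 within slide 1 (limma; 23 at p under 0.05 before adjustment), and the 1 higher call was lost in each of these.

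Among endosomal processing and class II turnover genes 3 of 11 fell and 0 rose, leaving 8 short of the threshold, with a median difference of -0.21, or -0.39 without the saturated probes of Ctsl and Lamp1. All 3 are lysosomal cysteine proteases: cathepsin S, Ctss, which trims the invariant chain (-0.87, limma adjusted p = 0.0148), legumain, Lgmn (-0.70, limma adjusted p = 0.0124), and cathepsin B, Ctsb (-0.64, limma adjusted p = 0.0499). Ctss read 2724, 2749.8 and 2512 in wild type and 1528, 1014 and 1171 in the knockouts, so the groups were well apart. Marchf1, the ligase that CD83 counters, was not among the 3.

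Of 14 factors of the class II promoter and of interferon signalling to Ciita, 1 fell, the kinase Jak2 (-0.45, limma adjusted p = 0.0445), and 13 missed the threshold. The median was -0.10. Jak2 read 1983, 1877 and 2049 in wild type and 1447, 1115 and 1094 in the knockouts. None of the X box and Y box factors on the list, the RFX subunits, NF-Y subunits and Creb1, was called.

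Of 6 fitted genes of other class II isotypes and costimulation limma called 0; without adjustment, 1 below 0 and 1 above 0 had a p under 0.05. The smallest p was that of Pdcd1lg2, a ligand of PD-1, with 59.2, 56.8 and 65.4 in wild type and 112, 65.2 and 182 in the knockouts (1.12, limma adjusted p = 0.136). H2-DMb2 and H2-Eb2 were well above background on no array.

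Class I presentation, which serves CD8+ T cells, had 2 of 14 genes called lower and 0 called higher, with a median of -0.39. The immunoproteasome subunit Psmb8 read 731, 671 and 798 in wild type and 433, 390.4 and 424 in the knockouts (-0.56, limma adjusted p = 0.0413). The nonclassical class I chain H2-M3 read 389.7, 346 and 389.9 in wild type and 261, 212 and 226 in the knockouts (-0.43, limma adjusted p = 0.033), and was 0.12 higher under normexp. The knockouts were all below the wild types for 11 of the 14 and all above them for 2, beside 16.0% and 19.2% of all fitted genes. Under normexp Psmb8 was -0.21 and uncalled.

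Marker lists of the cells that carry class II are given beside these values, since in whole testis fewer cells of a type and less RNA per cell cannot be told apart. Of 15 listed dendritic cell genes 9 were fitted. Limma called 1 lower and 1 higher and left 7 uncalled, with a median of -0.02. Itgax, the integrin chain CD11c, read 353, 379 and 388 in wild type and 86.1, 68.2 and 93.9 in the knockouts (-1.93, 3.80-fold lower, limma adjusted p = 0.00368). Its knockout signals were dim, and under normexp the difference was -0.66 and uncalled. Flt3, a growth factor receptor of dendritic cell precursors, rose (0.54, limma adjusted p = 0.0347). Xcr1, Clec9a, Cd209a and Btla were well above background on no array. The summed signal of the list, in units of the array's 75th percentile, was 13.7 to 16.5 in the knockouts and 12.8 to 13.6 in wild type, but most of it came from Siglech, whose probe was saturated on 5 of 6 arrays. A saturated probe reads about 0.26 higher in the knockouts through the scaling alone. Without it the sum was 1.54 to 1.59 in the knockouts and 1.61 to 1.87 in wild type, and the median -0.18.

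Among 14 fitted macrophage genes 2 fell and 0 rose, with 12 uncalled and a median of -0.22. The lipopolysaccharide coreceptor Cd14 read 949, 888 and 906 in wild type and 538, 401 and 462 in the knockouts (-0.72, limma adjusted p = 0.01), and the complement chain C1qc fell by as much (-0.72, limma adjusted p = 0.0198). Under normexp Cd14 was -0.39 and C1qc -0.69, both uncalled. The summed signal was 26.5 to 30.3 in the knockouts and 26.1 to 26.9 in wild type. This includes Aif1, whose probe was saturated on 5 of 6 arrays. Without Aif1 the sum was 11.7 to 12.8 against 12.3 to 14.5, most of it from Itgam (32717 to 50722, difference 0.01). Before adjustment 6 of the 14 were lower and 0 higher at a limma p under 0.05. Of 4 genes found in all leukocytes 1 fell, the actin regulator Coro1a (-0.55, limma adjusted p = 0.0199), with a median of -0.50 and summed signals of 0.541 to 0.589 against 0.737 to 0.801. The 4 did not move together. Ptprc differed by 0.04 with overlapping groups, and 3 had all knockouts below the wild types, beside 16.0% of all fitted genes.

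The lymphocyte lists had 0 calls. Of 7 fitted B cell genes 1 on either side of 0 had a limma p under 0.05 before adjustment, with a median of 0.12, and summed signals of 0.925 to 0.955 in the knockouts against 0.832 to 0.891. The smallest p was that of the B cell factor Pax5 (0.33, limma adjusted p = 0.11). Of 5 fitted T and NK cell genes that held for 0 below and 1 above 0, the T cell receptor chain Cd3d (0.42, limma adjusted p = 0.103), with a median of 0.09 and summed signals of 6.58 to 7.44 against 6.74 to 8.56. The part of these cell types in the differences of Cd83, Cd74 and Cd86 was not tested.

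**Figure D4:**
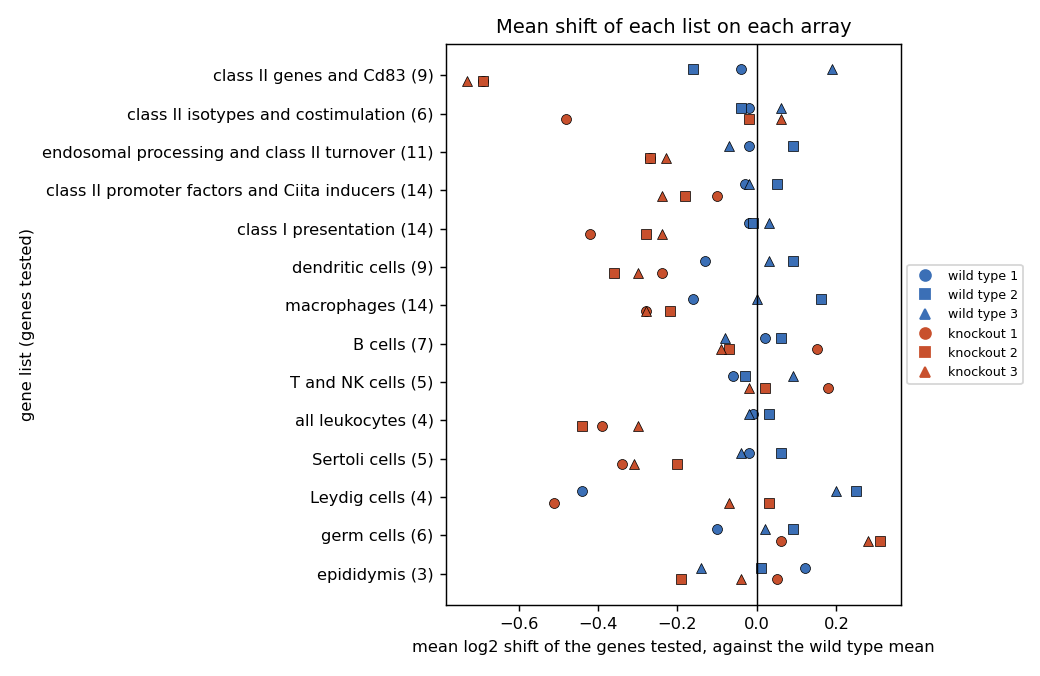
Mean log2 shift of the fitted genes of each list on each array against the wild type mean, with the number of genes in brackets. The row of class II genes and Cd83 (9 genes) lies at -0.73 to -0.69 in the knockouts. The dendritic cell, macrophage and leukocyte lists lie at -0.44 to -0.22. Lists of other kinds were below 0 there too: class I presentation (-0.42 to -0.24), Sertoli cells (-0.34 to -0.20), endosomal processing (-0.27 to -0.23) and promoter factors (-0.24 to -0.10). The germ cell list was above 0 (0.06 to 0.31, with 4 of 6 probes saturated), and the others lay on both sides. Single genes weigh on these means. Cd83 differed by -3.23, while the median over the 9 genes was -0.54. Itgax differed by -1.93, while the median of the dendritic cell list was -0.02.

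Lists of the testis itself were measured on the same arrays. Of 5 Sertoli cell genes 1 fell, the transcription factor Sox9 (-0.64, limma adjusted p = 0.0186). The median was -0.30, or -0.37 without the saturated probe of Clu. Before adjustment 4 of the 5 were lower and 0 higher at a limma p under 0.05. All knockouts were below all wild types for 4 of the 5, beside 16.0% of all fitted genes. Of 4 fitted Leydig cell genes 1 fell, the steroid enzyme Hsd3b1 (-0.76, limma adjusted p = 0.0368), with a median of -0.30. Star went the other way (0.63, limma adjusted p = 0.197), so 1 on either side of 0 had a limma p under 0.05 before adjustment. Of 6 germ cell genes limma called 0, with 1 above 0 and 0 below it at p under 0.05 before adjustment, but the probes of Ddx4, Tnp1, Prm1 and Prm2 were saturated on 4 or 5 of 6 arrays. Their median of 0.26 equals the gap in scaling and does not measure those genes, which leaves 2 genes with a median of 0.15; the smallest p was that of the acrosomal gene Acrv1 (0.21, limma adjusted p = 0.209). Of 3 fitted epididymis genes limma called 0, also with 0 at p under 0.05 before adjustment, the smallest p being that of Crisp1 (-0.32, limma adjusted p = 0.384).

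The genes most like the 9 genes followed in their pattern were sought among all other fitted genes. The measure was the correlation over the 6 arrays with the mean of the 9 genes' standardised values. That mean was -0.19, -0.59 and -0.60 in the knockouts and 0.44, 0.02 and 0.91 in wild type, so the wild types were spread widely among themselves. The 5 highest were Nkap (r = 0.996), Def8 (0.988), Derl3 (0.987), Syt7 (0.986) and Slc25a42 (0.984), with differences of -0.72 to -0.16. With the group means removed they were Thy1 (0.997), Ost4, Akirin2, Taf6 and Pawr (0.992), and no gene was in both sets of 5. With 6 arrays and 16944 other genes, values this high are a description and say nothing of shared control.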

How the data were processed

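Per the labels' protocols, testis RNA extracted with TRIzol was labelled with Cy3 for 1-colour Agilent arrays. The authors deposited linear spot intensity per array, made with Feature Extraction 10.7.3.1 on a design of build mm9 per the file headers, and a value table of linear intensity with limma as the tool named in the submitters' processing notes. The table's columns have medians of 554.0 to 554.2; how it was normalized is not given in the sources used.

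From the scanner files, 1377 control spots were left out and 163 to 280 spots flagged as outliers per array set to missing. Log2 processed signals were averaged per probe and each array's 75th percentile subtracted. Probes well above background on at least 3 of 6 arrays entered a two-sided eBayes fit with genotype as the single factor (limma 3.58.1 under R 4.3.3), with an adjusted p of 0.05 as the threshold. This left 31800 of 39429 probes. Probes were named by unversioned accession through RefSeq of GRCm38.p6 (26055 with 1 symbol, 13374 with none); a gene is its brightest fitted probe with 6 values. From each list up to 3 called genes with the smallest p are named, or 1 where none was called. Of the arrays 74.3% to 84.3% of probes were well above background, and 3 mice a group limit the precision. The mice are separate samples per the labels.

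The genes and lists were chosen with earlier results of these data known. The script was tested on simulated data. Normexp used the median spot signal, the only raw signal column present, with an offset of 50. Replicate numbers did not pair the arrays (deviations correlated at -0.09 to -0.03).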

Additional observations from a re-analysis of the deposited data

How the results depend on the processing

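Of the genes followed, 3 were called lower (Cd83, Cd74 and Cd86), and no H2 chain was called in any setting. The count was 3 under quantile normalization, median scaling, a filter on all 6 arrays and probe averaging. It was 2 with no filter and with slide as a block. It was 0 under normexp and within slide 1, and in both of these limma called 0 of all probes (3 and 5 of the genes followed were lower at p under 0.05 before adjustment). Leaving out 1 array gave 1 to 2; Cd83 was called in each, and Cd74 in all but those without knockout replicate 2 or 3. Cd86 lost its call without any 1 array. The median difference of -0.54 was -0.14 under normexp (all genes 0.16, from 0.05), -0.33 without a filter, where H2-Oa entered, and -0.26 in the slide 2 pair. Under normexp Cd86 was 0.19, H2-M3 0.12, Cd83 -1.61, H2-Aa -0.32, Ciita 0.77, Crisp1 0.78, Itgax -0.66, Psmb8 -0.21, Cd14 -0.39 and Coro1a -0.36. Trp73 (probe A_52_P410636) was -0.63 there, from -0.99. The cause was not tested. The list genes called lower, 12 in all, were 0 under normexp and within slide 1 (limma; 12 and 23 before adjustment), 7 with no filter, 6 with slide as a block, and 1 to 8 leaving out 1 array. The 1 called higher, Flt3, became 0 under normexp, with no filter, with slide as a block, within slide 1 and on leaving out any array (0 to 0), and 2 under quantile normalization and median scaling. The replicate numbers share only a number. With them as a replicate block limma called 0 of the genes followed and 0 list genes (5 and 35 lower before adjustment). Over the array it called 9 probes lower and 1 higher.

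Under the value table's own labels, which oppose the scanner files, 0 of the genes followed were called lower and 3 higher. List calls were 2 lower and 14 higher, and the median was 0.49. The differences there were 1.10 for Cd74, 0.49 for Cd86, 3.18 for Cd83, 0.94 for Trp73 (probe A_52_P410636), 0.86 for Hsd3b1, 0.58 for Sox9, 0.50 for Coro1a, 0.36 for H2-M3, 0.50 for Psmb8, 0.40 for Jak2, 1.86 for Itgax, -0.58 for Flt3, 0.77 for Lgmn, 0.82 for Ctss, 0.70 for Ctsb, 0.67 for Cd14 and 0.70 for C1qc. Signal over background limits Cd83, Cd86, Ciita and H2-Oa. Leaving saturated probes out of list sums and medians was chosen after seeing the data.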
